A study of Mus musculus with 12 samples.

Results

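The comparison concerns the hippocampus of the 6 male mice of the study, 3 *Nell-1+/6R* mice and 3 WT littermates, out of 12 mice of both sexes. These 6 were chosen by the M of their sample codes together with their genotype field, and all of them were 3 months old. The *Nell-1+/6R* mice carry 1 copy of 6R, a loss-of-function allele of *Nell1* induced by the mutagen ENU, in every cell of the body, beside 1 normal copy. Pups with 2 copies die at birth, so only heterozygotes reach adulthood, and no source used here gives the strain of the mice. The WT samples carry the short form of heterozygous in their titles, but WT in their genotype field and codes, which were followed. Of 27179 gene IDs in the count table, 14393 reached at least 1 CPM (counts scaled to the total of each library, the usual unit of depth-corrected expression) in at least 3 of the 6 mice and were tested. The CPM values printed below also carry the TMM correction of library size. Whole hippocampus was sequenced, so fewer cells of a type and less RNA per cell cannot be told apart in any result below.

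*Nell1* encodes a secreted glycoprotein with EGF-like repeats, first studied for its part in bone formation and in premature fusion of the skull sutures. In the brain it is made by neurons, and the question put to these samples was which hippocampal transcripts differ when 1 copy of the gene is lost. Several of the results concern imprinted genes, which are expressed from only the maternal or the paternal copy. The best known cluster is the Prader-Willi and Angelman region, which in the mouse lies on the same chromosome as *Nell1*.

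The total count ranged from 10834905 to 11661109 in the WT mice and from 13180826 to 14997319 in the *Nell-1+/6R* mice, so depth and genotype cannot be told apart. The largest single gene, Entrez ID 100861531, took 3.67% to 5.72% of the counts. The label of male sex was checked against 5 genes: *Xist* had 6 to 13 counts in each mouse, and *Eif2s3y* had 348 to 501, with *Ddx3y*, *Kdm5d* and *Uty* also expressed in all 6. *Nell-1+/6R* replicate 3 lay furthest out on the first principal component, with 37% of the variance, and its correlations with the other mice, 0.9771 to 0.9876, included the 3 lowest. The library of WT replicate 3 lay furthest out on the second, with 24.1%, and stood apart through genes of the choroid plexus, the tissue that secretes cerebrospinal fluid. Its *Ttr* count, for the transthyretin made by that tissue, was 48472, against 1004 and 1030 in the other WT mice and 233 to 651 in the *Nell-1+/6R* mice. Named genes whose call or size turns on this library are therefore given with and without it.

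*Nell1* itself, on chromosome 7 from 49975350 to 50863289 (mm10), gave 35.2, 33.8 and 30.4 CPM in the WT mice and 20.4, 17.4 and 17.0 CPM in the *Nell-1+/6R* mice. The groups did not overlap, and the *Nell-1+/6R* mice held 55.1% ± 5.53 (SD, n = 3) of the WT mean. The log2 fold change was -0.86 (SE 0.107), with an unadjusted p of 3.3e-05 and an adjusted p of 0.207 in edgeR's quasi-likelihood test with Benjamini-Hochberg adjustment over 14393 genes. Leaving out any 1 mouse moved it between -0.94 and -0.81, and thinning every library to the depth of the smallest, an alternative added after the data had been seen, gave -0.83. The 9 other members of the Nell family list, which holds its relative and its reported partners and receptors, included none past the thresholds set out below. *Nell2*, the relative with the same domain layout, had mean levels of 868 ± 31.8 CPM for WT and 925 ± 34.5 CPM for *Nell-1+/6R* (SD, n = 3 each). *Cntnap4*, a synaptic adhesion protein reported to bind Nell-1, had a log2 fold change of 0.25 (SE 0.138).

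Over all genes, 1 gene of 14393 passed an adjusted p of 0.05 in edgeR (0.00695% of those tested). The study counted a gene as changed at an unadjusted p under 0.05 with a fold change above 1.5, and these thresholds make no allowance for the number of genes. By them 36 genes were higher in the *Nell-1+/6R* mice (0.250% of those tested) and 214 were lower (1.49%). The CPM values of the 3 *Nell-1+/6R* mice lay wholly above those of the 3 WT mice in 729 genes (5.06%) and wholly below in 771 (5.36%). Among the genes past the thresholds the groups did not overlap in 33 of the 36 that rose and in 176 of the 214 that fell. The median log2 fold change over all genes, which the scaling sets close to 0, was 0.0047, and 6964 of the 14393 were negative. An unadjusted p under 0.05 was reached by 706 of the 14393 genes in edgeR, 451 in DESeq2 and 688 in limma-voom. The counts of the gene lists below are to be read against these. Many of the lower genes were weakly expressed, and 126 of the 214 had a mean under 5 CPM. In 16 of them no *Nell-1+/6R* mouse reached 1 CPM, and in 4 of the higher genes no WT mouse did, so these genes entered the test only through the genotype in which they were high. Of the genes named below this holds for *Folr1*, *Fzd10*, *Cd163*, *Col8a1*, *Pla2g5*, *Wfikkn2*, *Kbtbd6* and *Glp1r*. Leaving out 1 mouse at a time kept 14 of the 36 rises and 75 of the 214 falls past the thresholds in all 6 fits.

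**Figure D1:**
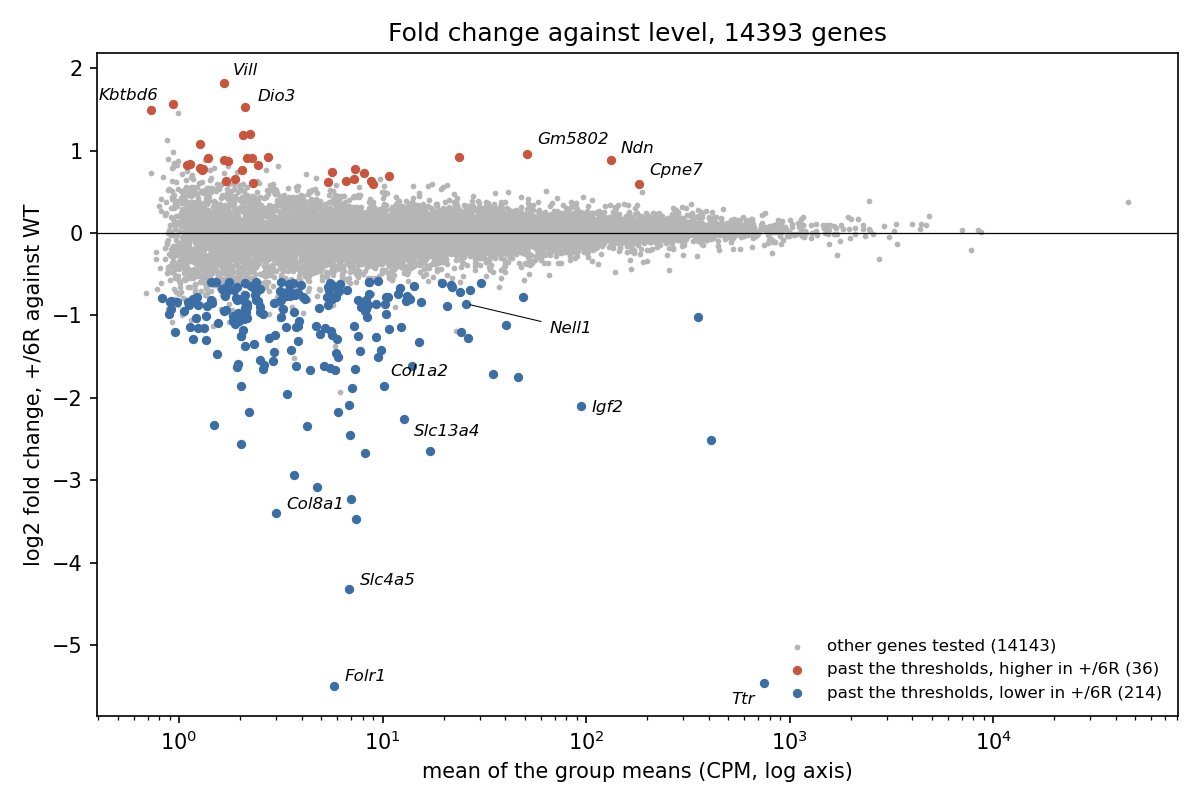
Log2 fold change of *Nell-1+/6R* against WT mice (vertical axis) against the mean of the group means in CPM (horizontal axis, log scale) for the 14393 genes tested, with the 36 higher and 214 lower genes past the thresholds in red and blue. The falls reach -5.49, while the largest rise is 1.82, and *Ndn* and *Gm5802* are the rises with the smallest p.

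The gene past the adjusted threshold was *Gm5802*, a processed pseudogene on chromosome 14 from 62540396 to 62541287 (mm10). It gave 37.1, 34.3 and 33.5 CPM in the WT mice and 65.4, 70.5 and 67.9 CPM in the *Nell-1+/6R* mice. No value of 1 genotype reached into the other, and the log2 fold change was 0.96 (SE 0.0768, edgeR adjusted p = 0.0160). Its adjusted p over the 17 alternatives ran from 4.55e-15 to 0.209, and it was under 0.05 in 10 of them. It was above 0.05 in each of the 6 fits that left out 1 mouse, from 0.0522 to 0.209, while the log2 fold change stayed between 0.93 and 1.00. The adjusted p was also above 0.05 in edgeR with replicate number as a block.

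*Gm5802* is a copy of the coding sequence of *Snrpn*, an imprinted gene for a splicing protein. Aligned to the 720 coding bases of *Snrpn*, its 701-base transcript matched at 667 of 692 positions (96.4%). The 50-base reads of these libraries can therefore fit both: of the 652 stretches of 50 bases in *Gm5802*, 65 occur unchanged in *Snrpn* transcripts and 54 in those of *Gm38393*, a GENCODE gene model that overlaps *Snrpn*. *Snrpn* in turn shares 457 of its 2106 stretches with other gene models, 446 of them with *Gm38393*. As that model overlaps *Snrpn* in the genome, the sharing with it need not send reads to a second place. No source used here says whether *Gm38393* was counted. The *Snrpn* counts stay uncertain through the stretches shared with *Gm5802*. The 2 sequences are shown where their longest identical run, of 91 bases, lies, because reads inside that run fit both genes equally. They are read 5′ to 3′ from GENCODE M21 transcripts (GRCm38, the same assembly as mm10), both on the minus strand, and capitals mark the 4 bases that differ. The *Snrpn* stretch lies in coding sequence of 2 exons within chr7:59983399-59985078, and the *Gm5802* stretch at chr14:62540531-62540680.
Snrpn: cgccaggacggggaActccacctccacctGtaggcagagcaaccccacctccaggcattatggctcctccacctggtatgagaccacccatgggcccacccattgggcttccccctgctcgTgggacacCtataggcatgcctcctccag
Gm5802: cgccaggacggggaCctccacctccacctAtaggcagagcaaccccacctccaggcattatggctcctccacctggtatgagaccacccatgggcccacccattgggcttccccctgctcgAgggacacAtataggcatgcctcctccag

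*Snrpn* had 17, 8 and 21 counts in the WT mice and 45, 50 and 34 in the *Nell-1+/6R* mice. All 3 *Nell-1+/6R* mice exceeded all 3 WT mice, with a log2 fold change of 1.20 (SE 0.338, unadjusted p = 0.00702, edgeR adjusted p = 0.884). *Snurf*, the gene that shares the *Snrpn* transcript and whose annotated span lies wholly inside that of *Snrpn*, had 0 counts in all 6 mice, and no source used here says how reads on overlapping genes were assigned. Whether the *Gm5802* counts came from the pseudogene or from the *Snrpn* locus was not tested.

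*Ndn*, which encodes necdin, a protein of postmitotic neurons expressed from the paternal copy, had the smallest p among the rises after *Gm5802*. It gave 102.9, 100.2 and 74.0 CPM in the WT mice and 160.9, 173.6 and 180.0 CPM in the *Nell-1+/6R* mice. The lowest *Nell-1+/6R* mouse was well above the highest WT mouse, and the log2 fold change was 0.89 (SE 0.123, unadjusted p = 7.04e-05, edgeR adjusted p = 0.242, DESeq2 adjusted p = 1.84e-07). No stretch of 50 bases in its transcript occurs in another gene. *Magel2*, its neighbour and relative, had 10, 13 and 20 counts in the WT mice and 28, 62 and 29 in the *Nell-1+/6R* mice. Its log2 fold change of 1.20 (SE 0.41) had an unadjusted p of 0.0186, and the call was lost without WT replicate 1, without WT replicate 2 and without *Nell-1+/6R* replicate 2, where it was 1.02, 1.11 and 0.72.

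A pair of long non-coding RNAs of the same region fell. *Ipw*, a paternally expressed transcript between *Ube3a* and *Snrpn*, gave 4.46, 3.61 and 4.90 CPM in the WT mice and 1.95, 1.16 and 1.25 CPM in the *Nell-1+/6R* mice. The groups were separated, with a log2 fold change of -1.56 (SE 0.261, unadjusted p = 0.000285, edgeR adjusted p = 0.41, DESeq2 adjusted p = 0.0245). *A230057D06Rik*, which lies between *Snrpn* and *Ndn*, gave 5.01, 6.04 and 4.37 CPM in the WT group and 2.75, 1.96 and 2.27 CPM in *Nell-1+/6R* mice, a log2 fold change of -1.14 (SE 0.216). Both calls remained in each fit that left out 1 mouse. The host transcript *Snhg14*, which runs over the region and antisense to *Ube3a*, overlapped between the groups at a log2 fold change of 0.49 (SE 0.358). Since the strand setting of the counting is not given, reads of *Snhg14* cannot be told apart from those of the genes it overlaps.

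In all, 11 members of the Prader-Willi and Angelman list were tested, of which 3 rose and 2 fell, against 0.250% higher and 1.49% lower among all genes, with a median of 0.20 against 0.0047. Without *Nell-1+/6R* replicate 3 the median was 0.08, and without the other mice in turn it was 0.15 to 0.30. *Ube3a*, the ubiquitin ligase expressed from the maternal copy in neurons, had a log2 fold change of 0.20 (SE 0.127). *Gabra5*, a GABA-A receptor subunit, had -0.07, and *Atp10a* and *Herc2* had 0.24 and 0.17, none past the thresholds. Mkrn3, Peg12, *Snurf*, Gabrg3 and Oca2 were under the filter, and the small nucleolar RNA clusters Snord115 and Snord116 had no ID that matched. This list follows genes that the study itself took from these mice, so its counts are not independent evidence.

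**Figure D2:**
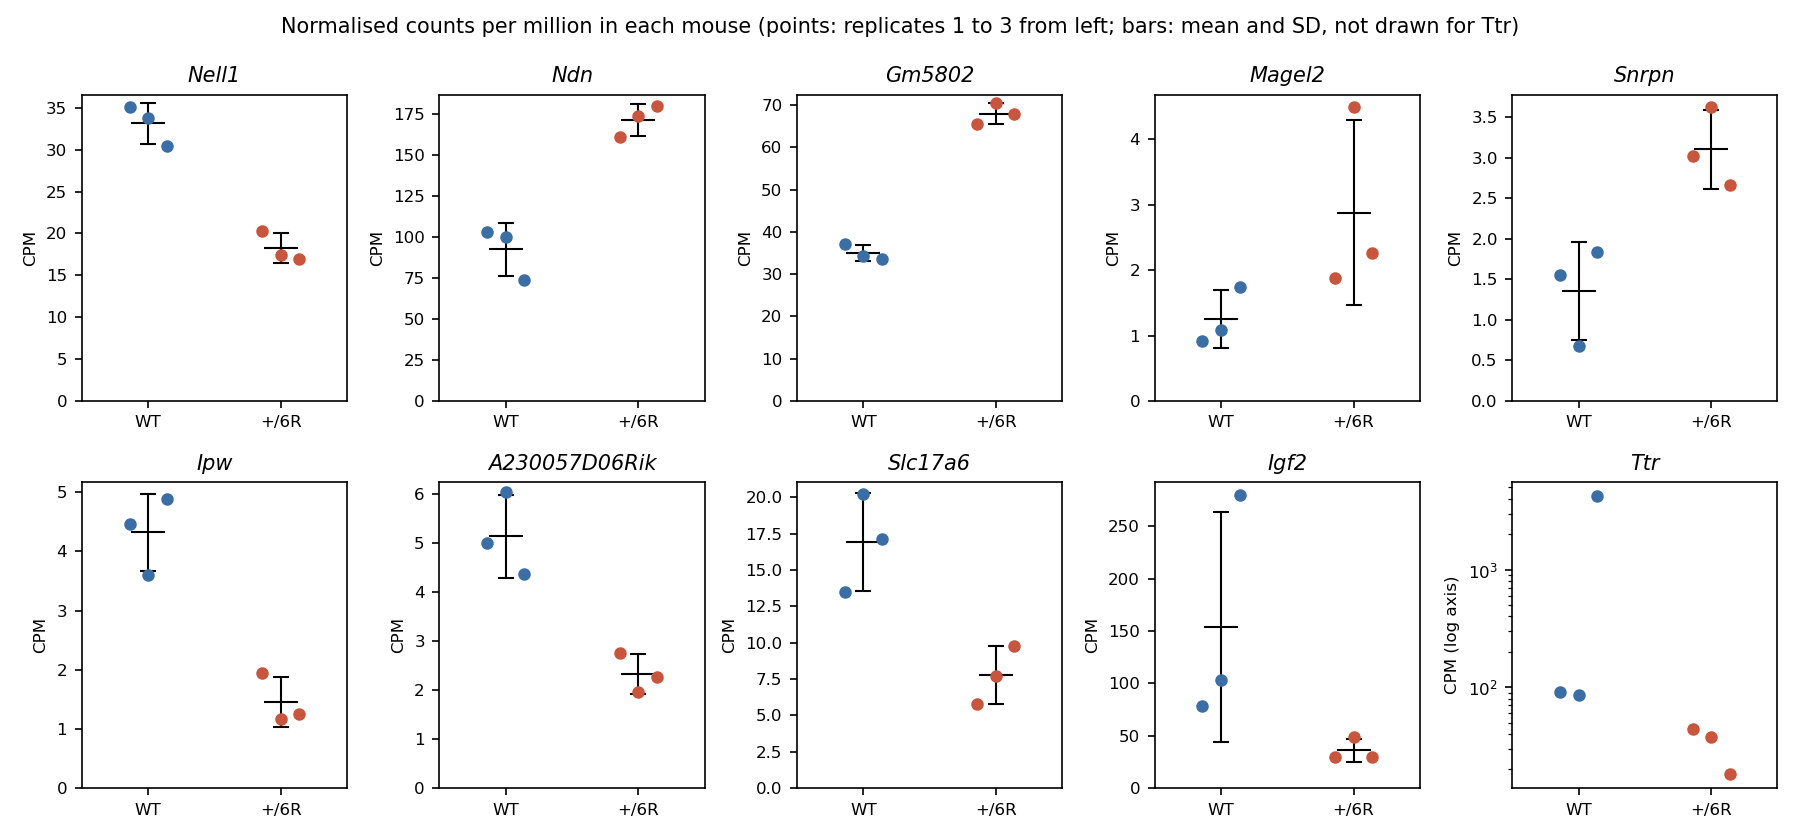
CPM of 10 named genes in each WT (blue) and *Nell-1+/6R* (red) mouse, with replicates 1 to 3 from left to right in each group and black bars for the mean and SD. The genotypes do not overlap in any panel, and in *Ttr* (log axis, no bars) and *Igf2* WT replicate 3 lies far above the other WT mice.

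The Prader-Willi region lies on the same chromosome as *Nell1*, and the 5 members that changed are 8.76 to 11.5 Mb from it. Within 15 Mb of *Nell1* on either side, 183 other genes were tested, of which 3 rose and 3 fell. That is 3.28% of them, against 1.56% of the 898 genes on the rest of chromosome 7 and 1.72% of the 13311 genes on other chromosomes. Besides the 5 genes above, the sixth was *Slc17a6*, 0.759 Mb from *Nell1*. The median log2 fold change in this window of 15 Mb was 0.0013. Within 5 Mb, 79 other genes were tested, of which none rose and 1, *Slc17a6*, fell (1.27%). On the side of *Nell1* with the lower coordinates, *Prmt3*, 0.114 Mb away, had 0.13 (SE 0.0884), *Htatip2* had -0.03 (SE 0.169) and *Nav2* had -0.01 (SE 0.0579). On the other side the nearest gene tested was *Ano5*, 0.647 Mb away, with 12, 20 and 12 counts in the WT mice against 11, 12 and 9, and a log2 fold change of -0.72 (SE 0.324, unadjusted p = 0.0555 in edgeR's test across all genes). Its groups did not overlap in CPM, and it was followed by *Slc17a6* with -1.14 and by *Gas2* and *Svip* with 0.23 and 0.12. The mice of the 2 genotypes can differ in more than the 6R mutation around this locus, and linked sequence and the allele itself cannot be told apart with these counts.

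**Figure D3:**
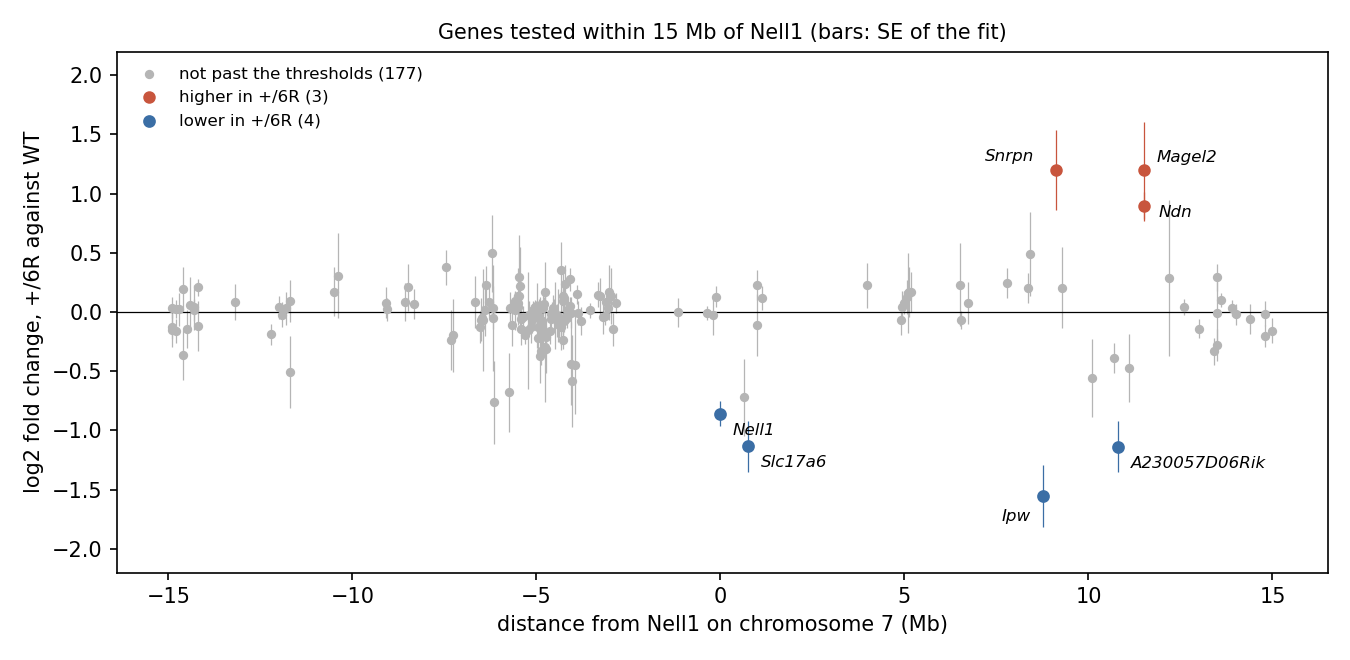
Log2 fold change with its SE (vertical axis) against distance from *Nell1* in Mb (horizontal axis) for 184 genes tested within 15 Mb, *Nell1* included. The 3 rises and 2 of the 4 falls lie in the Prader-Willi region, 8.76 to 11.5 Mb from *Nell1*, among genes near 0.

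Outside that region, 34 imprinted genes were tested, of which 1 rose and 2 fell, against 0.250% and 1.49% of all genes, with a median of 0.08, or 0.01 without *Nell-1+/6R* replicate 3 and 0.04 without WT replicate 1. The count of rises was 2 without *Nell-1+/6R* replicate 1 and 0 without *Nell-1+/6R* replicate 2. *Dlk1*, a Notch-related protein expressed from the paternal copy, had mean levels of 5.42 ± 1.21 CPM for WT and 9.24 ± 2.61 CPM for *Nell-1+/6R* (SD, n = 3 each). The difference, 0.77 on the log2 scale (SE 0.245), lost its call without *Nell-1+/6R* replicate 2, where it was 0.51. *Dio3*, at the other end of the same imprinted domain, encodes the deiodinase that inactivates thyroid hormone. It was not on the list but was among the 10 largest rises, with 9, 13 and 15 counts in the WT mice and 36, 55 and 38 in the *Nell-1+/6R* mice. Genotypes were well separated at a log2 fold change of 1.53 (SE 0.294, unadjusted p = 0.000732, edgeR adjusted p = 0.458).

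The imprinted genes that fell were the growth factor *Igf2* and the cell cycle inhibitor *Cdkn1c*, both on chromosome 7. *Igf2* gave 78.2, 103.2 and 279.6 CPM in the WT mice and 29.5, 48.7 and 29.8 CPM in the *Nell-1+/6R* mice. WT replicate 3 was the highest, but the other WT mice were also above every *Nell-1+/6R* mouse. The log2 fold change was -2.09 (SE 0.459) with all mice and -1.33 without WT replicate 3 (unadjusted p = 0.00055). *Cdkn1c* moved from -1.43 to -0.73 in the same way and stayed past the thresholds. *Igf2* in the adult brain comes largely from the meninges and the choroid plexus, and it is also counted in the leptomeningeal list below.

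The other large rises were in weakly expressed genes. *Vill*, a villin-like actin-binding protein, gave 1.09, 0.252 and 0.874 CPM in the WT group and 3.43, 2.25 and 2.11 CPM in *Nell-1+/6R* mice, the largest rise at a log2 fold change of 1.82 (SE 0.435). *Kbtbd6*, part of a ubiquitin ligase complex, rose by 1.57 (SE 0.356), but 724 of the 2935 stretches of 50 bases in its transcripts also occur in *Kbtbd7*, so its counts are uncertain. *Glp1r*, the receptor for the gut hormone GLP-1, reached 1.49 (SE 0.53), or 2.57 without WT replicate 3, and lost its call without WT replicate 1, without WT replicate 2 or without *Nell-1+/6R* replicate 1. *Mroh5* and *Ecel1*, a neuronal metalloprotease, had 1.08 and 0.92. *Tmod3*, which caps the pointed ends of actin filaments, was better covered, with 15.1, 19.1 and 14.6 CPM in the WT group and 25.99, 38.9 and 28.1 CPM in *Nell-1+/6R* mice (log2 fold change 0.93, SE 0.176). *Vill*, *Kbtbd6*, *Mroh5*, *Ecel1* and *Tmod3* kept their calls in all 6 fits that left out 1 mouse.

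Genes of the coverings of the brain were among the falls. Of 17 tested genes that mark leptomeningeal fibroblasts, the matrix-producing cells of the pia and arachnoid, 13 fell and none rose, against 1.49% lower among all genes, with a median of -1.24 against 0.0047. Among the falls, *Slc13a4*, *Slc6a13*, *Slc6a20a* and *Slc22a6* are also on a list that the study took from the same mice. For these members the count is not independent evidence. The groups did not overlap downwards in 14 of the 17, against 5.36% of all genes. Their summed level was 242.3, 311 and 453.2 CPM in the WT mice and 112.1, 167 and 122.3 CPM in the *Nell-1+/6R* mice. All *Nell-1+/6R* mice were below all WT mice. *Igf2*, given above, made up most of this sum in WT replicate 3, and the sum was not computed without it. No member passed the adjusted threshold in edgeR, while 15 had an unadjusted p under 0.05 and DESeq2 called 6 at an adjusted p under 0.05. Without WT replicate 3 the count was again 13 with a median of -1.36, and over the other 5 fits without 1 mouse it was 10 to 14.

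*Col1a2*, a chain of type I collagen, gave 11.5, 17.3 and 13.3 CPM in the WT group and 4.03, 6.53 and 4.23 CPM in *Nell-1+/6R* mice. These groups were far apart, with a log2 fold change of -1.51 (SE 0.229, unadjusted p = 0.000144, edgeR adjusted p = 0.296). *Col3a1* and *Col1a1*, the chains of type III and type I collagen, had -1.44 and -0.88, the latter losing its call without WT replicate 2. *Islr*, a secreted leucine-rich protein, fell with little spread, from 21.1, 20.4 and 17.9 CPM to 10.9, 11.7 and 10.6 CPM (log2 fold change -0.84, SE 0.108, unadjusted p = 4.32e-05, edgeR adjusted p = 0.207). *Fmod*, a small proteoglycan that binds collagen, and *Aldh1a2*, which makes retinoic acid in the meninges, had -1.65 and -1.64. *Dcn*, the proteoglycan decorin and a common fibroblast marker, did not follow: it gave 19.9, 27.3 and 25.4 CPM in the WT group and 17.9, 28.6 and 28.3 CPM in *Nell-1+/6R* mice. Its groups overlapped at a log2 fold change of 0.04 (SE 0.195). *Ogn*, *Fbln1* and *Crabp2* had -0.58, -0.52 and -1.05 and were not past the thresholds, *Lum* lost its call without WT replicate 3, at -0.52, and without *Nell-1+/6R* replicates 1 and 2 in turn. The call of *Bgn* was lost without WT replicate 2 and without *Nell-1+/6R* replicates 1 and 3 in turn, and that of *Slc22a6* without WT replicates 1 and 2 and *Nell-1+/6R* replicate 1 in turn.

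The study singled out a list of solute carriers and other transport genes, of which 4 of those tested are also leptomeningeal markers. Of 7 such genes tested, with 6 more under the filter, 6 fell and none rose, against 1.49% lower among all genes, with a median of -1.24. The study took them from the same mice, so the count is not independent evidence of a direction. *Slc13a4*, a sulfate transporter, gave 12.6, 17.4 and 33.0 CPM in the WT group and 3.43, 6.82 and 2.90 CPM in *Nell-1+/6R* mice. No value overlapped, with a log2 fold change of -2.26 (SE 0.417), or -1.77 without WT replicate 3. *Slc6a13*, which takes up GABA and taurine, and *Slc6a20a*, which takes up proline, had -1.29 (SE 0.326) and -1.24 (SE 0.266). *Slc7a11*, the cystine and glutamate exchanger, had -0.35 and did not pass. The remaining falls were *Slc22a6*, an organic anion carrier, *Slc17a6* and *Cp*, the copper protein ceruloplasmin, whose call was lost without WT replicate 2. *Slc13a4*, *Slc6a13*, *Slc6a20a* and *Slc22a6* are also counted in the summed leptomeningeal level, and the part of that level in the result was not tested.

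Choroid plexus epithelium gave the largest folds, and these rested on 1 library. Of 11 tested markers 10 fell and none rose, against 1.49% lower among all genes, with a median of -2.94. Without WT replicate 3 the fit gave 3 lower, *Ttr*, *Folr1* and *Otx2*, and 1 higher, *Prlr*, the prolactin receptor (0.75), and the median was -0.48. The count of lower genes was also 4, 7 and 5 without *Nell-1+/6R* replicates 1, 2 and 3 in turn. The summed level was 131.4 and 137 CPM in WT replicates 1 and 2, 4705 CPM in WT replicate 3 and 51.6 to 83.8 CPM in the *Nell-1+/6R* mice. limma-voom called 0 of the 11 with 0 at an unadjusted p under 0.05, and DESeq2 called 3. *Ttr* had a log2 fold change of -5.46 (SE 1.53) with all mice and -1.41 without WT replicate 3 (unadjusted p = 0.00194). *Folr1*, which carries folate into the cerebrospinal fluid, had 15, 21 and 352 counts in WT and 4, 3 and 3 in *Nell-1+/6R* mice, a log2 fold change of -5.49 with all mice and -2.65 without that library. It passed the filter through the WT mice alone, so it could only be tested because it was higher there. *Otx2*, the transcription factor of this epithelium, went from -2.94 to -0.97 and kept its call. *Slc4a5* and *Clic6*, an ion transporter and a channel protein, went from -4.32 to -0.96 and from -2.65 to -0.58 and lost theirs, and *Clic6* also without *Nell-1+/6R* replicates 1 and 3 in turn. *Kl*, the membrane protein klotho, *Sostdc1*, a secreted BMP antagonist, *Calml4*, a calmodulin-like protein, and *Ecrg4*, a secreted peptide precursor, had -1.75, -2.67, -1.61 and -3.47 with all mice. Their groups overlapped, and without WT replicate 3 they had -0.25, -0.18, -0.36 and -0.48 and lost their calls, which were also lost without *Nell-1+/6R* replicate 1. *F5*, a clotting factor, turned from -3.23 to 0.20. Kcnj13, Aqp1, Tmem72 and Kcne2, channels and membrane proteins of the same cells, were under the filter because only WT replicate 3 had over 18 counts of any of them, with 207 to 305.

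The other largest falls showed the same dependence. *Col8a1* and *Col8a2*, short-chain collagens, went from -3.40 to -1.35 and from -2.45 to -0.91 without WT replicate 3, and *Pla2g5*, a secreted phospholipase, went from -2.56 to -1.16. These 3 kept their calls. *Enpp2*, the enzyme that makes lysophosphatidic acid, and *Trpv4*, a calcium channel, went from -2.51 to -0.52 and from -2.34 to -0.61 and lost them, as they did without *Nell-1+/6R* replicate 1. Over all genes, 123 of the 214 falls (57.5%) remained past the thresholds without that library, which is 72.8% of the 169 lower genes then called, and 27 of the 36 rises remained among 59.

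**Figure D4:**
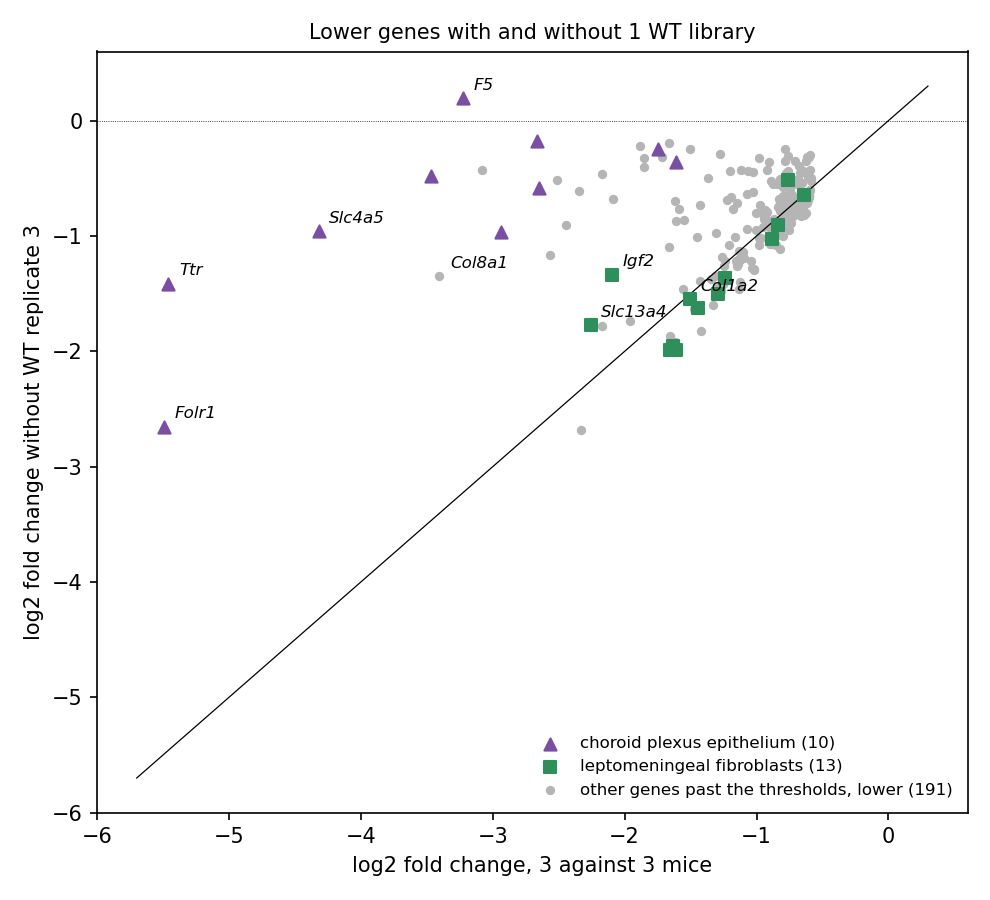
Log2 fold change without WT replicate 3 (vertical axis) against that with all 6 mice (horizontal axis) for the 214 lower genes, with an identity line. The 10 choroid plexus genes lie far above the line, with *F5* above 0, while most of the 13 leptomeningeal genes stay near it.

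Markers of vessels and resident immune cells were counted in the same way. Among 13 tested mural cell genes 4 fell and none rose, against 1.49% lower among all genes, with a median of -0.26 (-0.17 without WT replicate 2 and -0.41 without WT replicate 3), and the 4 were contractile proteins of smooth muscle: *Acta2*, *Myh11*, *Tagln* and *Myl9*. *Acta2*, smooth muscle actin, gave 15.8, 36.3 and 11.1 CPM in the WT group and 5.78, 7.83 and 7.05 CPM in *Nell-1+/6R* mice. The highest WT value, in replicate 2, carried much of the difference, which was -1.62 (SE 0.403) with all mice and -0.96 without that mouse. *Myh11* and *Tagln* went from -1.33 to -0.72 and from -1.13 to -0.66 without WT replicate 2, and *Myl9* lost its call, also without *Nell-1+/6R* replicate 1. The pericyte genes *Pdgfrb* and *Rgs5* had -0.15 and 0.25. Of 15 endothelial genes only *Vwf*, the von Willebrand factor, passed (1.49% of all genes were lower), at -0.65 (SE 0.15), and its call was lost without WT replicate 2 and without *Nell-1+/6R* replicate 1. The count of lower genes was 2 without *Nell-1+/6R* replicate 3 and with thinning. The groups did not overlap downwards in 5 of the 15, against 5.36% of all genes.

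Of 12 markers of border-associated macrophages, which live in the meninges and around vessels, 8 were under the filter. Of the 4 tested, the scavenger receptors *Cd163* and *Mrc1* fell by 1.29 and 0.86 on the log2 scale, against 1.49% lower among all genes, and *Cd163* passed the filter through the WT mice alone. With the filter of the study 5 of 11 fell, and with no filter 5 of 12, where the added genes had low counts. The call of *Mrc1* was lost without WT replicate 2, without *Nell-1+/6R* replicate 1 and without *Nell-1+/6R* replicate 2. None of 20 microglial and none of 19 astrocyte genes passed, and none in either list had an unadjusted p under 0.05 in edgeR, in DESeq2 or in limma-voom. Their medians were -0.01 and -0.05. The oligodendrocyte lineage leaned lower, with 20 of 21 genes negative and a median of -0.24. None passed in edgeR, DESeq2 or limma-voom, where 1, 2 and 1 had an unadjusted p under 0.05, and the median was -0.13 without *Nell-1+/6R* replicate 3. With the replicate block 9 of the 21 had an unadjusted p under 0.05, and 7 of 21 without *Nell-1+/6R* replicate 2, where the median was -0.31. *Nell-1+/6R* replicate 3 had the lowest summed level, 3846 CPM against 5308 to 6318 CPM in the other 5. Of 9 ependymal genes none passed in edgeR, DESeq2 or limma-voom, with 0 in edgeR and 1 in limma-voom at an unadjusted p under 0.05, but 1 was lower past the thresholds in edgeR without WT replicate 1 or *Nell-1+/6R* replicate 1.

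**Figure D5:**
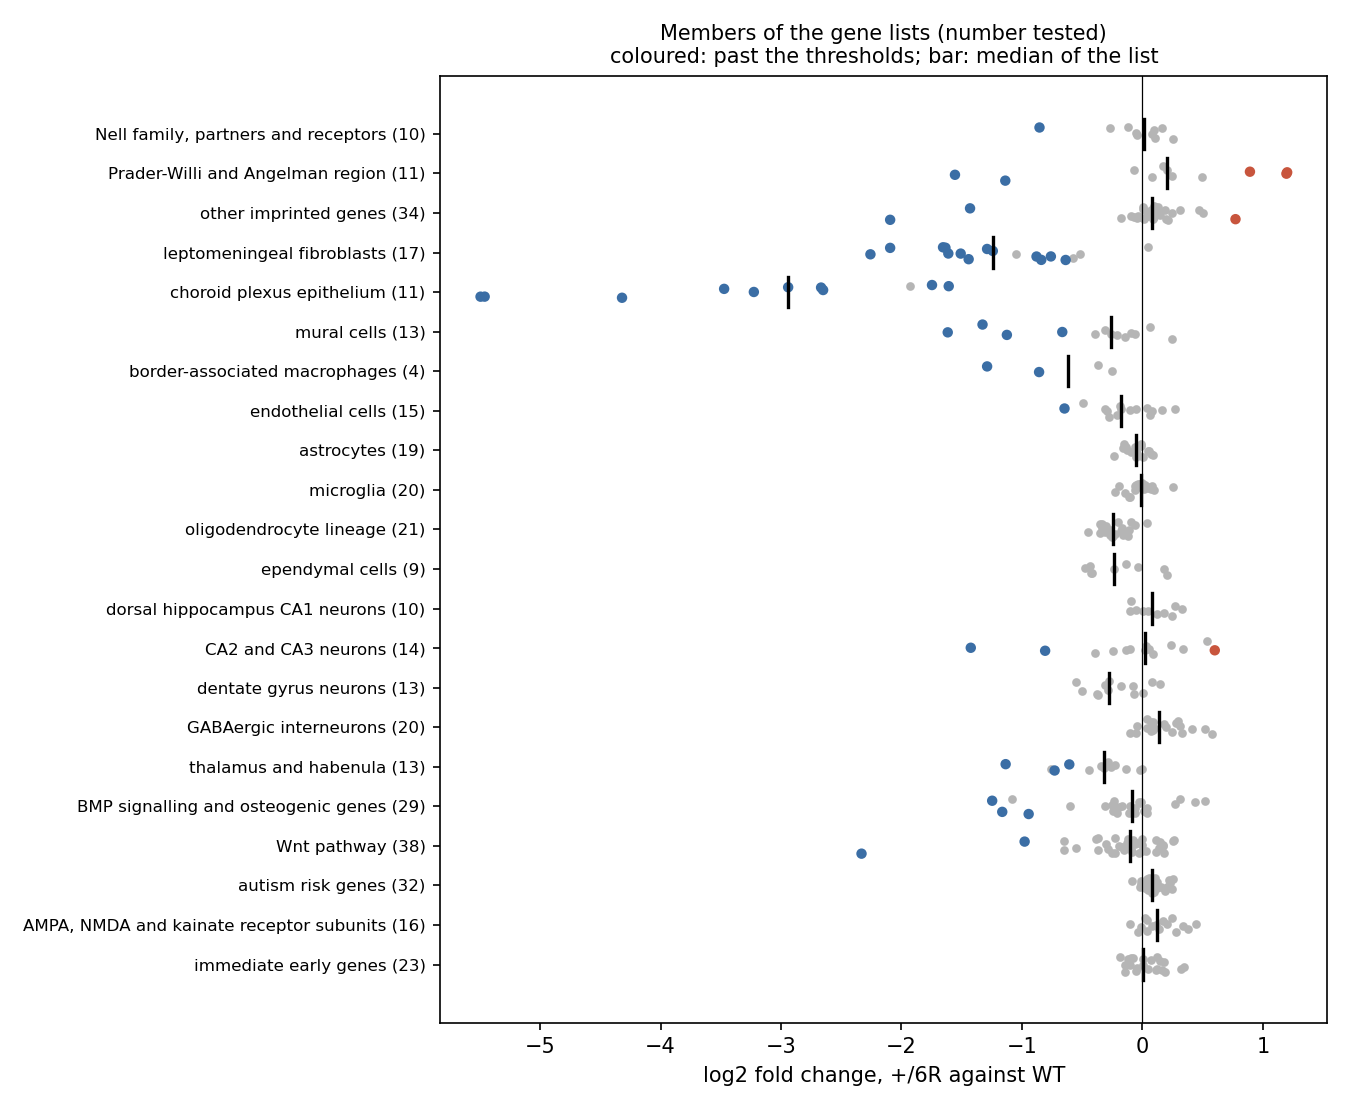
Log2 fold change (horizontal axis) of the tested members of 22 gene lists (rows, with the number tested), in blue where lower and red where higher past the thresholds, with a bar at the list median. The medians of the leptomeningeal and choroid plexus lists are -1.24 and -2.94, while those of the astrocyte and microglial lists are -0.05 and -0.01.

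The neurons of the hippocampus were described by subfield. The 10 markers of CA1 had a median of 0.08, which was 0.04 without WT replicate 1, 0.22 without WT replicate 2, 0.13 without *Nell-1+/6R* replicate 1 and 0.20 without *Nell-1+/6R* replicate 2, with none past the thresholds, and 2 had an unadjusted p under 0.05 in each of edgeR, DESeq2 and limma-voom. Of 14 markers of CA2 and CA3, 1 rose and 2 fell, against 0.250% and 1.49% of all genes, with a median of 0.02. Leaving out 1 mouse gave 0 to 2 higher and 1 to 2 lower: 2 were higher without WT replicate 3, *Nell-1+/6R* replicate 1 or *Nell-1+/6R* replicate 2, none without WT replicate 2 or *Nell-1+/6R* replicate 3, and 1 was lower without WT replicate 3, *Nell-1+/6R* replicate 2 or *Nell-1+/6R* replicate 3, in DESeq2 and with the replicate block. *Cpne7*, a calcium-binding copine, gave 146, 120.3 and 166 CPM in the WT group and 195, 199.7 and 261 CPM in *Nell-1+/6R* mice. The groups were separate, and the log2 fold change of 0.60 (SE 0.144) lost its call without WT replicate 2 and without *Nell-1+/6R* replicate 3. *Coch*, an extracellular matrix protein, gave 4.74, 5.37 and 5.42 CPM in the WT group and 1.81, 2.68 and 1.25 CPM in *Nell-1+/6R* mice, with -1.42 (SE 0.268). *Map3k15* had -0.81 and lost its call without WT replicate 3, at -0.51, and without *Nell-1+/6R* replicates 2 and 3 in turn. The 13 markers of dentate granule cells had a median of -0.28 with 10 of 13 negative. None passed in edgeR, DESeq2 or limma-voom, where 5, 4 and 5 had an unadjusted p under 0.05, against 706, 451 and 688 of all 14393 genes. The median was -0.07 without *Nell-1+/6R* replicate 2. In edgeR 1 was lower past the thresholds without WT replicate 2, WT replicate 3, *Nell-1+/6R* replicate 1 or *Nell-1+/6R* replicate 3. *Plk5*, a kinase-related protein of mature neurons, was the lowest of them, at 53.8, 38.8 and 43.5 CPM in the WT group and 32.4, 31.5 and 29.0 CPM in *Nell-1+/6R* mice (log2 fold change -0.55, SE 0.125).

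The vesicular glutamate transporters load glutamate into synaptic vesicles, and their members mark different glutamatergic neurons. *Slc17a6*, the form used mainly by thalamic and other subcortical neurons, gave 13.5, 20.2 and 17.1 CPM in the WT group and 5.78, 7.69 and 9.79 CPM in *Nell-1+/6R* mice. The groups did not overlap, with a log2 fold change of -1.14 (SE 0.215, unadjusted p = 0.00065, edgeR adjusted p = 0.442), and the call stayed in all 6 fits without 1 mouse. *Slc17a7*, the form of hippocampal pyramidal and granule cells, had 0.07 (SE 0.0613), and *Slc17a8* had -0.23 (SE 0.229). Beside *Slc17a6*, 13 markers of thalamus and habenula were examined as tissue that can adhere to a dissected hippocampus. That list includes *Slc17a6*, 3 of its members fell and none rose, against 1.49% lower among all genes, all 13 log2 fold changes were negative and the median was -0.32 (-0.50 without WT replicate 1 and -0.18 without WT replicate 2). Its summed level was 162.1, 190 and 204.6 CPM in the WT group and 138.7, 155.8 and 137.5 CPM in *Nell-1+/6R* mice. *Ramp3* and *Synpo2*, the other members past the thresholds, had -0.73 and -0.61 and lost their calls without WT replicate 3, at -0.55 and -0.49, and without *Nell-1+/6R* replicate 2, and *Synpo2* also without WT replicate 2 and without *Nell-1+/6R* replicate 1. The part of adhering tissue in the *Slc17a6* result was not tested. Of 11 striatal markers, examined for the same reason, 1 fell, again against 1.49% of all genes, the adenosine receptor *Adora2a*, at -0.60 (SE 0.254), and its call was lost in 5 of the 6 fits without 1 mouse, all but that without *Nell-1+/6R* replicate 3.

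Genes of inhibition and of synaptic receptors were examined next. None of 20 markers of GABAergic interneurons, 16 subunits of AMPA, NMDA and kainate receptors, 11 subunits of GABA-A receptors or 13 receptors for dopamine and serotonin passed in edgeR, in DESeq2 or in limma-voom. At an unadjusted p under 0.05 edgeR gave 3, 2, 2 and 1 of them. Of the interneuron markers 1 was higher past the thresholds with no filter, with the filter of the study, with thinning and without WT replicate 3, *Nell-1+/6R* replicate 1 or *Nell-1+/6R* replicate 2, and of the dopamine and serotonin receptors 1 was so without WT replicate 2 or 3. The medians were 0.14, 0.12, 0.08 and 0.20. Without *Nell-1+/6R* replicate 3 they were 0.05, -0.00029, -0.05 and 0.14, and that of the GABA-A subunits was -0.0058 without WT replicate 1 and 0.21 without *Nell-1+/6R* replicate 2. That of the interneuron markers was 0.22 without *Nell-1+/6R* replicate 1. That of the AMPA, NMDA and kainate subunits was 0.19 without WT replicate 2 and 0.21 without *Nell-1+/6R* replicate 2. None of 32 autism risk genes of synapse and chromatin passed, and none had an unadjusted p under 0.05 by any of these tools. Their median was 0.08, which moved to -0.0027 without *Nell-1+/6R* replicate 3, to 0.03 without WT replicate 1 and to 0.15 without WT replicate 2. Without *Nell-1+/6R* replicate 2 it was 0.155, with 2 genes at an unadjusted p under 0.05. The 23 immediate early genes, which report recent neuronal activity, had a median of 0.01 with none past the thresholds or at an unadjusted p under 0.05 by these tools. The same held for 16 glucocorticoid and heat shock genes and 9 genes of neurogenesis and cell division, and of 16 clock genes none passed and 2 had an unadjusted p under 0.05 by each tool. Of the glucocorticoid and heat shock genes 1 was higher without WT replicate 3 and 1 lower without *Nell-1+/6R* replicate 1. Of the clock genes 1 was lower without *Nell-1+/6R* replicate 2.

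Because Nell-1 is known from bone, 29 genes of BMP signalling and osteogenesis were examined. BMPs are secreted ligands that act through receptor kinases and Smad proteins. 3 ligands fell and no gene of the list rose, against 1.49% lower among all genes, with a median of -0.09 that moved between -0.16 (without *Nell-1+/6R* replicate 3) and -0.03 (without WT replicate 2). The count of falls was 4 in limma-voom, with no filter and without WT replicate 3, *Nell-1+/6R* replicate 2 or *Nell-1+/6R* replicate 3. Without WT replicate 1 there was 1 rise. *Bmp6* gave 13.2, 13.6 and 18.0 CPM in the WT group and 6.31, 8.49 and 5.17 CPM in *Nell-1+/6R* mice. The groups were clearly apart, with a log2 fold change of -1.16 (SE 0.204, unadjusted p = 0.000395, edgeR adjusted p = 0.437). *Bmp4* and *Bmp7* had -1.25 (SE 0.293) and -0.94 (SE 0.224), and the calls of all 3 ligands were kept in each fit without 1 mouse. The receptor genes *Bmpr1a*, *Bmpr1b* and *Acvr1* had -0.03, -0.02 and 0.04. The target genes *Id1*, *Id2* and *Id3*, which BMP signals induce, had -0.31, 0.01 and -0.24 with none past the thresholds. *Runx2* and *Sp7*, transcription factors of bone, had -0.06 and -0.19. The summed level of leptomeningeal genes, whose cells make BMPs, was lower in the same mice, as given above, and its part in the fall of these ligands was not tested.

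Of 38 Wnt pathway genes, 2 fell and none rose, against 1.49% lower and 0.250% higher among all genes, with a median of -0.11 (-0.07 without WT replicate 1). The count was 1 in limma-voom, in robust edgeR and without WT replicate 3, *Nell-1+/6R* replicate 1 or *Nell-1+/6R* replicate 2, 3 without WT replicate 1 or 2 and 4 without *Nell-1+/6R* replicate 3. *Fzd10*, a Wnt receptor, had 24, 49 and 13 counts in WT and 4, 4 and 12 in *Nell-1+/6R* mice, a log2 fold change of -2.33 (SE 0.606). Its groups were separate by 1 count in the raw numbers, 13 against 12, and it passed the filter through the WT mice alone. *Sfrp1*, a secreted Wnt inhibitor, had -0.98 and lost its call without WT replicate 3, where it was -0.32, and without *Nell-1+/6R* replicates 1 and 2 in turn.

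A short list of 14 genes named in the study or its supplements was also examined, 12 of which were matched. Of these, *Ndn* and *Snrpn*, given above, and *Negr1* passed the filter on low values. *Negr1*, a neuronal adhesion protein that the study mentions only as background, gave 69.4, 97.3 and 76.7 CPM in the WT group and 85.6, 69.1 and 117 CPM in *Nell-1+/6R* mice. Its groups overlapped at a log2 fold change of 0.16 (SE 0.194). The others were under that filter and are given as counts. With the looser filter of the study 10 of the list were tested, and *Asmt* and *Lox* were also lower past the thresholds, at an unadjusted p of 0.00814 and 0.0108 in edgeR's test across all genes (adjusted p = 0.878 and 0.88). No *Nell-1+/6R* mouse reached the 0.2 CPM of that filter in either gene, so both could only be tested because they were higher in WT. The study also picked them from data that include these mice, so their calls are not independent evidence. *Asmt*, the last enzyme of melatonin synthesis, had 10, 4 and 5 counts in WT and 2, 0 and 1 in *Nell-1+/6R* mice. *Lox*, which cross-links collagen, had 4, 7 and 1 against 0 in each *Nell-1+/6R* mouse, and *Tpsb2*, a mast cell protease, had 3, 1 and 0 against 0. The ligand *Wnt6* had 12, 18 and 5 against 3, 13 and 1, which overlap. *Cdc6*, needed for DNA replication, had 2, 7 and 5 against 13, 8 and 10, and *Slc45a2*, a pigment transporter, had 4, 3 and 3 against 10, 5 and 6. Nkx6-1 had 0, 12 and 2 counts in WT against 0, 2 and 3 in *Nell-1+/6R* mice. Slamf1 had 2, 0 and 0 against 3, 3 and 2, and Dao had 1, 0 and 1 against 3, 2 and 2. Gm15577 and Gm1821 were not matched by symbol.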

How the data were processed

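RNA-seq counts of 3 male *Nell-1+/6R* and 3 male WT hippocampi were compared. The authors deposited raw counts per Entrez gene ID, without normalization or pooling. By the submitters' processing notes the single reads of 50 bases were aligned to mm10 with HISAT2 2.1.0 and counted with featureCounts 2.0.1. No source used here gives the strand setting or the handling of reads with several matches. By the study's methods the hippocampus was taken from 3 male *Nell-1+/6R* mice and 3 male WT littermates, so each library is taken as 1 mouse, although the labels do not say so.

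Of the gene IDs, 25275 were named and 25269 placed through RefSeq GRCm38.p6, and 1904 have no name. Genes with at least 1 CPM in at least 3 of the 6 mice were tested with edgeR 4.0.16 (R 4.3.3), using TMM factors, the quasi-likelihood test with genotype alone and Benjamini-Hochberg adjustment. CPM values are TMM-normalised, and log2 fold changes carry a prior count of the tool. The thresholds of the study were 0.05 for the unadjusted p and 1.5 for the fold change. The fit was tested on simulated data. DESeq2 1.42.0, limma-voom (limma 3.58.1), other factors and filters, a replicate block and leaving out each mouse were the alternatives, and thinning to equal depth and robust edgeR were added after the data had been seen. Depth limits precision: at these totals 1 CPM is about 11 to 15 counts. 

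The groups, gene lists and named genes were chosen with earlier results of these data known. Named were *Nell1*, genes at an adjusted p under 0.05, the 10 largest rises and 10 largest falls past the thresholds without overlap of the groups, list members, genes that the study names and 5 genes that check sex. Sequence was compared with Biopython 1.88, and figures were drawn with matplotlib 3.10.9.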

Additional observations from a re-analysis of the deposited data

How the results depend on the processing

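The count of genes at an adjusted p under 0.05 was 1 in edgeR. It was 32 with DESeq2 and 0 in edgeR with the replicate block, where 581 genes had an unadjusted p under 0.05. It was 0 in each of the 6 edgeR fits without 1 mouse, where 512 to 758 had an unadjusted p under 0.05. The count past the thresholds of the study was 250. It was 442 with no filter, 403 with the filter of the study, 706 with no fold threshold and 219 to 296 without 1 mouse. The *Nell1* log2 fold change was -0.86 with an adjusted p of 8.13e-06 in DESeq2, and ran from -0.94 to -0.81 without 1 mouse. *F5* turned from -3.23 to 0.20 without WT replicate 3. Replicate numbers did not pair the mice: same-numbered deviations from the group means correlated at 0.154, -0.412 and -0.032, and the replicate block gave 223 genes past the thresholds and -0.86 for *Nell1*. The other scalings, filterByExpr, thinning, robust edgeR and limma-voom kept the counts within 1.5 times and the *Nell1* change on its side of the threshold. For the other named genes, 652 of 702 values under alternatives that kept all 6 mice stayed on their side of the thresholds and 50 fell below them, and without 1 mouse 315 of 384 stayed and 68 fell below. The causes were not tested. Depth was higher in every *Nell-1+/6R* library, and about 1 CPM was the least level tested.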

Other observations

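The following lower genes lie outside the lists and were chosen after their values were seen, so their calls are not independent evidence. *Mgp*, a matrix protein that restrains calcification, gave 10.4, 14.4 and 14.6 CPM in the WT group and 4.97, 6.31 and 5.09 CPM in *Nell-1+/6R* mice (log2 fold change -1.26, SE 0.178, edgeR adjusted p = 0.242). *Serping1*, the inhibitor of the first complement component, and *A2m*, a broad protease inhibitor, had -1.25 (SE 0.205) and -1.96 (SE 0.353). *Wfikkn2*, a secreted protease inhibitor, had 30, 33 and 61 counts in WT and 13, 12 and 8 in *Nell-1+/6R* mice. It passed the filter through the WT mice alone, so it could only be tested because it was higher there. *Cd74*, the invariant chain of MHC class II, gave 5.37, 5.79 and 5.25 CPM in the WT group and 2.01, 2.90 and 1.64 CPM in *Nell-1+/6R* mice. Each of these genes was past the thresholds of the study in all 6 fits without 1 mouse, and none had an adjusted p under 0.05 in edgeR, while in DESeq2 the adjusted p of *Mgp*, *Serping1*, *A2m*, *Wfikkn2* and *Cd74* was 0.000109, 0.00217, 0.00317, 0.00542 and 0.0281. *Myo7a*, an unconventional myosin on chromosome 7, had -0.72 (SE 0.125) and lost its call without WT replicate 2.

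Some neuronal genes were higher by less than the fold threshold, and these too were chosen after their values were seen. *L1cam*, an adhesion molecule of axons, gave 126, 128 and 127 CPM in the WT group and 153, 160.49 and 167 CPM in *Nell-1+/6R* mice. Its log2 fold change was 0.34 (SE 0.0617, unadjusted p = 0.000524, edgeR adjusted p = 0.442). *Gap43*, a growth cone protein, had 0.40 (SE 0.0771). The imprinted genes *Nnat*, which encodes neuronatin, and *Meg3*, a long non-coding RNA of the *Dlk1* domain, had 0.50 (SE 0.117) and 0.21 (SE 0.048). The groups did not overlap in any of these 4 genes, which were picked for their values, and 5.06% of all genes were wholly higher. In DESeq2 the adjusted p of *L1cam*, *Gap43* and *Nnat* was 0.0278, 0.0324 and 0.0457, and *Meg3* was not called.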
